A study of Bubalus bubalis with 6 samples.

Results

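Members of the miR-17/92 and miR-106b/25 microRNA clusters, with their paralog miR-92b, were followed in the cell-free saliva of Murrah buffaloes at estrus and diestrus. They were taken by name from the deposited table of 273 miRNAs, which carry the bovine prefix bta in their names. Of the 10 names sought, 7 had a row, with or without an arm suffix: miR-17-5p, miR-19b, miR-20a, miR-92a, miR-92b, miR-93 and miR-25. No row of miR-18a, miR-19a or miR-106b was analysed here.

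Saliva came from 3 healthy wild-type animals, each sampled at both phases of the cycle, which gave 3 estrus and 3 diestrus libraries of small RNA. Estrus is the period of receptivity to mating, and diestrus the later period in which the corpus luteum secretes progesterone. No age, treatment or method of staging is given in the labels. The question of the study was how the salivary miRNA profile differs between these phases.

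MicroRNAs are short RNAs that guide Argonaute proteins to messenger RNAs, mostly through pairing of the seed near their 5′ end, and so lower the output of their targets. The miR-17/92 cluster is cut from one primary transcript, is induced by MYC and promotes proliferation and survival, among others by repressing the pro-apoptotic protein BIM. The paralogous miR-106b/25 cluster, which also holds miR-93, lies in an intron of MCM7, a subunit of the replicative helicase, and restrains the cell cycle inhibitor p21. miR-92b has a locus of its own. miR-17-5p, miR-20a, miR-93 and miR-106b share a seed, miR-25, miR-92a and miR-92b share another, and miR-19a and miR-19b a further one. miR-92a and miR-25 are also known as abundant miRNAs of blood cells and plasma.

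The libraries were shallow and unequal. The deposited values are counts divided by a factor for each library, and the underlying reads, 64277 in all, ranged from 3015 in the diestrus library of animal 1 to 27036 in the estrus library of animal 3. The estrus library of animal 3 stood apart: across the 58 miRNAs tested, its Spearman correlation with the other 5 libraries ran from -0.18 to 0.17. The choice of miRNAs bears on this, since 12 of the 58 had a mean under 5, the minimum set for testing, over the other 5 libraries. All 12 were highest in the estrus library of animal 3, which can by itself lower the correlation. That library was also the deepest. Its description in the labels carries the string Repl, which the other descriptions lack and the labels do not explain. Phase differences below are therefore given with and without it. The labels state no sequencing batch, so no comparison within a batch could be made. Intervals below are 95% Wilson intervals and cover counting error only.

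The cluster miRNAs were a minor part of 5 libraries and a large part of 1. Together the 7 members held 1620 reads, or 5.99% (5.72 to 6.28), in the estrus library of animal 3. In the other estrus libraries they held 20 reads in animal 1, or 0.119% (0.0767 to 0.183), and 9 reads in animal 2, or 0.133% (0.0702 to 0.253). At diestrus they held 11, 17 and 11 reads in animals 1, 2 and 3. These were 0.365% (0.204 to 0.652), 0.306% (0.191 to 0.490) and 0.218% (0.122 to 0.389) of the library. The diestrus shares thus lay within each other's counting intervals. As point values, the estrus shares of animals 1 and 2 lay below all 3 diestrus shares, and that of animal 3 lay far above. The estrus interval of animal 2 overlapped all 3 diestrus intervals, and that of animal 1 overlapped the diestrus interval of animal 3. In saliva, which is a bulk fluid, more cells releasing a miRNA and more of it released per cell cannot be told apart.

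**Figure D1:**
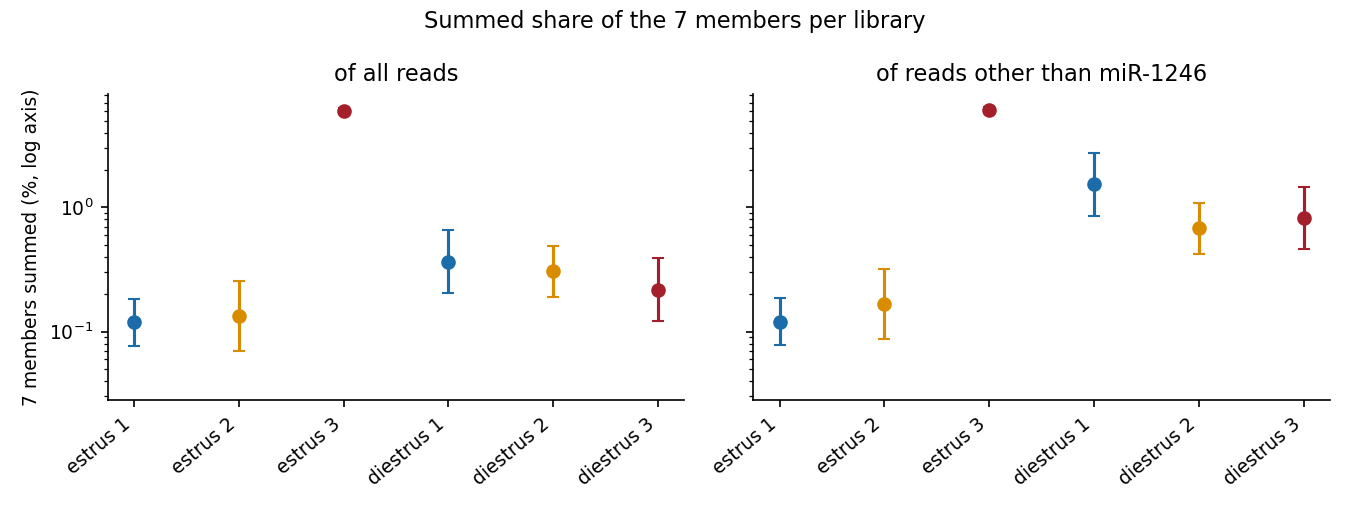
Summed share of the 7 members in each library on a log axis, of all reads (left) and of reads other than miR-1246 (right); points are libraries, bars 95% Wilson intervals, colours animals. The estrus library of animal 3 lies at 5.99% of all reads, and the other 5 libraries lie between 0.119% and 0.365%.

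The phases differed in opposite directions between animals. The summed share was 3.08-fold lower at estrus in animal 1 and 2.30-fold lower in animal 2, but 27.5-fold higher at estrus in animal 3. Averaged over animals, the members took 2.08% ± 3.39 of an estrus library and 0.296% ± 0.0741 of a diestrus library (SD, n = 3 each), so the estrus SD exceeded its mean. Without the estrus library of animal 3 the estrus mean was 0.126%, and the difference from diestrus turned from 1.79 to -0.17 percentage points. The counting intervals of the 2 phases did not overlap in animals 1 and 3, and they overlapped in animal 2. For miR-93, miR-92a, miR-25 and miR-92b taken singly they overlapped in both animals 1 and 2.

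One abundant miRNA weighs on every share at diestrus. miR-1246 took between 55.0% and 76.2% of the diestrus reads and between 1.20% and 20.0% of the estrus reads. Of the remaining reads the members made up 0.120%, 0.167% and 6.10% at estrus in animals 1, 2 and 3, and 1.53%, 0.680% and 0.823% at diestrus. The order of the libraries by phase within each animal was as before, and on this scale the counting intervals of the phases did not overlap in any of the 3 animals. The difference of the phase means was 1.12 percentage points with the estrus library of animal 3 and -0.87 without it.

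miR-93, the miR-106b/25 cluster member that carries the miR-17 seed, had the most reads of any member in the estrus library of animal 3 and few elsewhere. Its normalized counts were 1.97, 1.81 and 136 at estrus in animals 1, 2 and 3, and 8.55, 3.26 and 3.44 at diestrus. They rest on 5, 1 and 755 reads and on 3, 2 and 2 reads. It ranked 7th of the 228 miRNAs detected in the estrus library of animal 3 and between 33rd and 72nd in the other 5 libraries. That 1 library was 15.9 times the highest of the others and lay above all 3 diestrus values, whereas the other estrus libraries lay below all 3. Over the 5 other libraries its mean was 3.80 normalized counts, under the minimum of 5 set for testing, so it was tested only because of the estrus library of animal 3. Over those 5 libraries miR-92a averaged 6.71, miR-25 5.34 and miR-92b 4.56.

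miR-25, which comes from the same primary transcript as miR-93 but carries the miR-92 seed, followed a like course. Its normalized counts were 2.36, 3.62 and 46.1 at estrus and 5.70, 8.14 and 6.87 at diestrus, from 6, 2 and 256 reads and from 2, 5 and 4 reads. The diestrus values averaged 6.91 ± 1.22 (SD, n = 3), and both low estrus values lay under them. With so few reads, counting error is wider than this spread. The diestrus share of animal 1, for example, had an interval of 0.0182% to 0.242%, against an SD of 0.0119 percentage points between the diestrus shares. The estrus library of animal 3 was 5.66 times the highest other value. The mean at estrus was 17.3 ± 24.9 normalized counts with that library and 2.99 without it.

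miR-92a was the one member of the miR-17/92 cluster with reads in every library. Its normalized counts were 2.36, 9.04 and 102 at estrus and 5.70, 13.0 and 3.44 at diestrus, from 6, 5 and 568 reads and from 2, 8 and 2 reads. The estrus library of animal 3 was again the highest, at 7.84 times the next. The other estrus values lay inside the range of the diestrus values or just under it. Its estrus mean was 37.9 ± 55.8 normalized counts, against 7.39 ± 5.01 at diestrus (SD, n = 3 each), and 5.70 at estrus without that library.

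The other members of the miR-17/92 cluster were seen in 1 library. miR-17-5p, a repressor of cell cycle inhibitors, had 2 reads, miR-19b, the member with the miR-19 seed, had 3, and miR-20a, which shares the miR-17 seed, had 5. All of them came from the estrus library of animal 3, where together they made up 0.0370% of the reads (0.0201 to 0.0681). In the other 5 libraries the 3 miRNAs had 0 of 37241 reads, which by the limit of 3 reads, used here for counts of 0 in place of the Wilson interval, allows a share of up to 0.00806% over these libraries together. Single libraries set a far looser limit. A count of 0 allows a share of up to 0.0178% in the estrus library of animal 1 and 0.0445% in that of animal 2, and up to 0.0995%, 0.0541% and 0.0593% in the diestrus libraries of animals 1, 2 and 3. A share like that of the estrus library of animal 3 was thus not detectable in 4 of these 5 libraries. No fold change is given for them, since the counts lie at or near the floor of 3 reads.

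miR-92b had the same seed as miR-92a but was not at its highest in that library. Its normalized counts were 1.18, 1.81 and 5.58 at estrus and 11.4, 3.26 and 5.16 at diestrus, from 3, 1 and 31 reads and from 4, 2 and 3 reads. The highest value was that of the diestrus library of animal 1, and the phases overlapped. The estrus library of animal 3 was 0.489 times that highest value. Its share of reads was 0.115% there (0.0808 to 0.163) and 0.133% in the diestrus library of animal 1 (0.0516 to 0.341), which overlap. Every other library had a lower share, from 0.0148% to 0.0593%. Of these, only the estrus library of animal 1 had an interval (0.00605 to 0.0523) that did not overlap that of the estrus library of animal 3. The estrus mean was 2.86 ± 2.38 normalized counts (SD, n = 3) with the estrus library of animal 3 and 1.495 without it, against 6.60 ± 4.26 at diestrus. With a mean of 4.73 normalized counts over the 6 libraries it fell just under the minimum for testing.

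**Figure D2:**
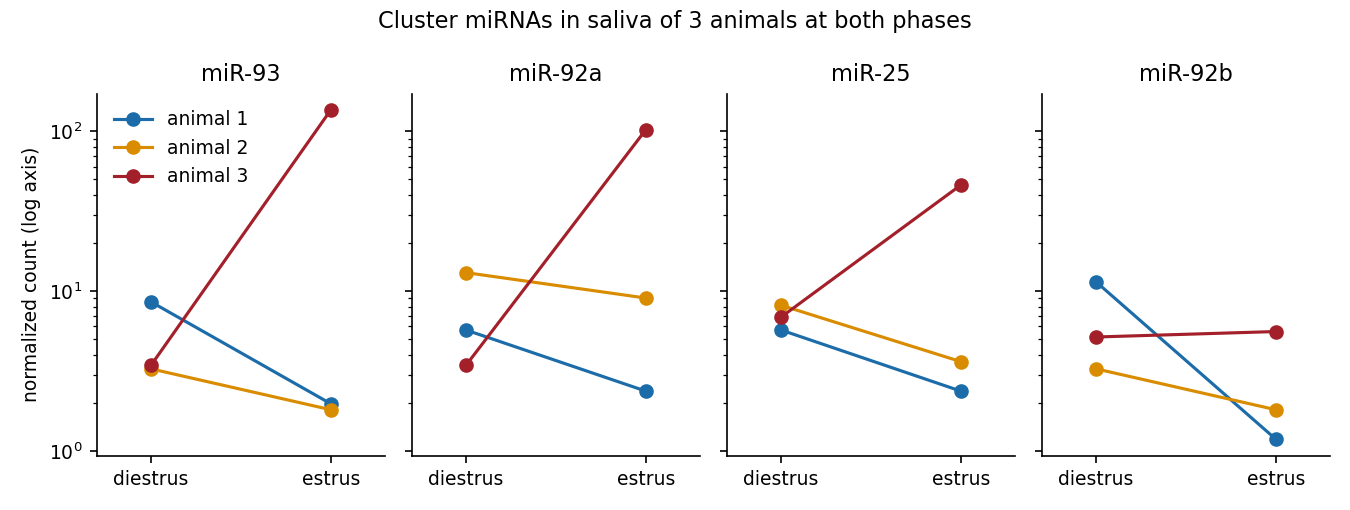
Normalized counts on a log axis of miR-93, miR-92a, miR-25 and miR-92b at diestrus and estrus, each point a library and each line an animal. Lines of animals 1 and 2 fall from diestrus to estrus in all 4 panels; the line of animal 3 climbs to 136 for miR-93 and is nearly flat, from 5.16 to 5.58, for miR-92b.

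The make-up of the members' reads was known well in the estrus library of animal 3 alone. Members with the miR-25/92 seed held 52.8% of the members' reads there (50.3 to 55.2) and 75.0% and 88.9% at estrus in animals 1 and 2. At diestrus they held 72.7%, 88.2% and 81.8%. Each of the single values outside animal 3's estrus library rests on 9 to 20 reads, and the intervals of the diestrus libraries of animal 1 (43.4 to 90.3) and animal 3 (52.3 to 94.9) cover the low value too. Summed over those 5 libraries the share was 80.9% (70.0 to 88.5), above the interval of the estrus library of animal 3. By phase this seed group averaged 72.2% ± 18.2 in estrus libraries and 80.9% ± 7.79 in diestrus libraries (SD, n = 3 each). The difference was smaller than the estrus SD, and it turned from -8.70 to 1.02 percentage points without the estrus library of animal 3.

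Pairs of members, chosen after the values were seen, are given as a description. Of the reads of the cluster mates miR-93 and miR-25, miR-93 held 74.7% in the estrus library of animal 3 (71.9 to 77.3) and 40.6% over the other 5 libraries (25.5 to 57.7, 13 of 32 reads). Of the reads of the paralogs miR-92a and miR-92b, miR-92b held 5.18% (3.67 to 7.25) and 36.1% (22.5 to 52.4, 13 of 36 reads), respectively. For miR-92a against miR-25 the values were 68.9% (65.7 to 72.0) and 54.8% (39.9 to 68.8), and these intervals overlapped, which does not show that the ratio was the same. The sums over 5 libraries do not carry the spread between libraries. Some single libraries had intervals wide enough to cover the values of the estrus library of animal 3, such as 60.0% (23.1 to 88.2) for miR-93 in the diestrus library of animal 1 and 16.7% (3.01 to 56.4) for miR-92b in the estrus library of animal 2. miR-92a itself made up 35.1% of the members' reads there and 33.8% over the other 5 libraries.

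**Figure D3:**
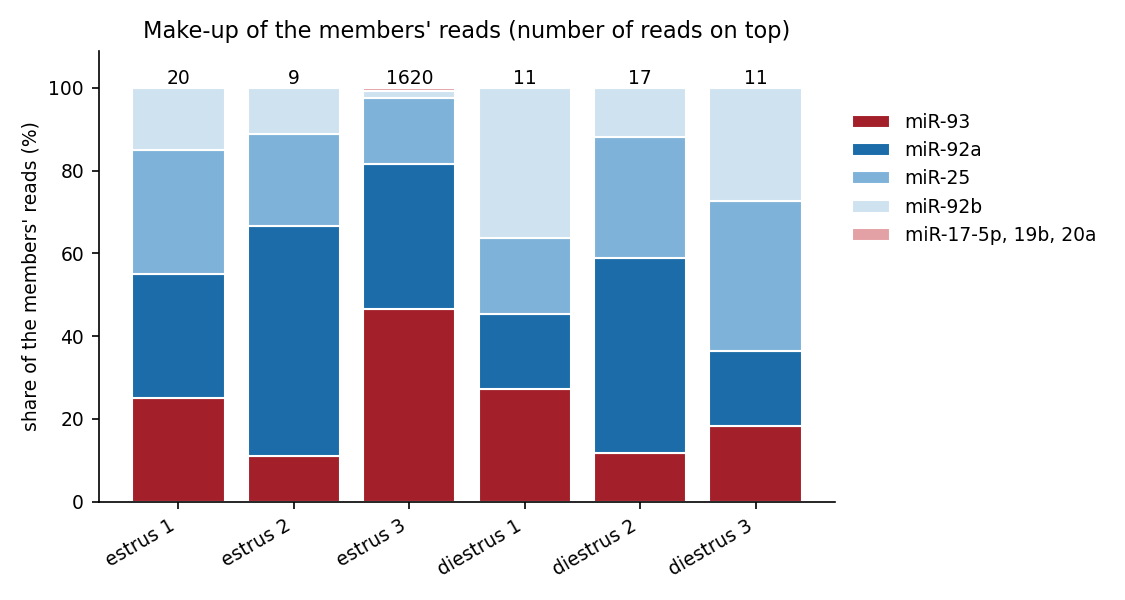
Make-up of the members' reads in each library, in percent of the number of reads printed above each bar; blue shades are the miR-25/92 seed group and red shades the others. miR-93 takes 46.6% of 1620 reads in the estrus library of animal 3, while the bars of the other 5 libraries rest on 9 to 20 reads each.

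The summed shares of the listed epithelial and erythrocyte miRNAs were also high in the estrus library of animal 3, and that of the leukocyte miRNAs was not. Of the 8 epithelial miRNAs listed, 7 had a row, and their summed share was 9.41% in that library. It was 0.163% and 1.10% in the other estrus libraries and between 0.252% and 0.356% at diestrus. Of the 5 erythrocyte miRNAs, 3 had a row, with a summed share of 2.57% there and between 0.0180% and 0.0791% elsewhere. miR-16a made up 590 of the list's reads over all libraries, and miR-486, the more specific erythrocyte marker, only 11, while no row of miR-451 or miR-144 was analysed here. Of the 7 leukocyte miRNAs, 6 had a row, and their share was 2.31% there, within the range of 0.575% to 3.68% in the other 5 libraries. This sum is mostly miR-223, with 1086 reads over all libraries, against at most 53 for any other leukocyte miRNA listed. All 6 had reads in the estrus library of animal 3, the deepest, and 2 or 3 had reads in each other library. The part of these cell types, and of depth, in the high level of the cluster miRNAs was not tested.

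No member differed between the phases by the test across all miRNAs. The test compared log2(normalized count + 1) between phases with limma for the 58 miRNAs with a mean of at least 5, with Benjamini-Hochberg adjustment over all of them. At an adjusted p-value below 0.05, 0 of the 58 passed (0%), and 8 (13.8%) did so at an unadjusted one, none of them a member. The 3 members tested were miR-93, miR-92a and miR-25. The libraries are separate samples of 3 animals, so the spread between them includes that between animals.

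With all 6 libraries, the estimates of miR-93 and miR-92a were close to the median miRNA, and that of miR-25 was lower. The log2(normalized count + 1) scale in general understates the change of low miRNAs, but the animals of these 3 members moved in opposite directions. With pseudocounts of 0.1 and 10, the changes were 0.80 and 0.88 for miR-93 and 1.03 and 0.81 for miR-92a. For miR-25 they were 0.11 and 0.32. On the log2(normalized count + 1) scale the median change over the 58 miRNAs was 0.90 in favour of estrus. miR-93 changed by 0.89 with a standard error of 1.54 (95% interval -2.15 to 3.92, limma adjusted p = 0.728). miR-92a changed by 1.02 with a standard error of 1.49 (-1.91 to 3.95, limma adjusted p = 0.728). miR-25 changed by 0.20 with a standard error of 1.52 (-2.80 to 3.20, limma adjusted p = 0.954). Relative to the median of all miRNAs these were -0.01, 0.13 and -0.70. The limma intervals and p-values use 232 degrees of freedom, pooled over miRNAs of the same 6 libraries. They may therefore be too narrow and too small, respectively. All 3 estimates were above 0, as were 42 of the 58 (72.4%), so with all 6 libraries the shared sign was that of most miRNAs. It was negative for all 3 when the scaling left out miR-1246, at -0.14, -0.11 and -0.91.

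The sign of these estimates depended on the estrus library of animal 3. Without it miR-93 changed by -0.97 (standard error 0.62, limma adjusted p = 0.471), miR-92a by -0.36 (0.91, limma adjusted p = 0.790) and miR-25 by -0.99 (0.61, limma adjusted p = 0.471). Without it 34 of the 58 miRNAs had a positive change and 23 a negative one, with a median of 0.72. Relative to that median the changes of miR-93, miR-92a and miR-25 were -1.69, -1.09 and -1.72, so these 3 then had the sign of the smaller group. Leaving out any of the other libraries left all 3 estimates above 0. In each of these 3 miRNAs, estrus was lower than diestrus in animals 1 and 2 and higher in animal 3, a pattern that 5 of the 58 tested miRNAs showed (8.62%). miR-92b had the same order, though its animal 3 values were nearly equal. The phases did not separate for any of the 3, against 4 of 58 overall (6.9%). Having the highest normalized count in the estrus library of animal 3 was common, at 25 of 58 miRNAs (43.1%), and 15 of 58 (25.9%) were there at least 5 times the highest of the other libraries, as these 3 were. The minimum mean sets part of these shares, since 12 of the 58 miRNAs, miR-93 among them, fell under it over the other 5 libraries, and 9 of the 15 were of this kind.

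**Figure D4:**
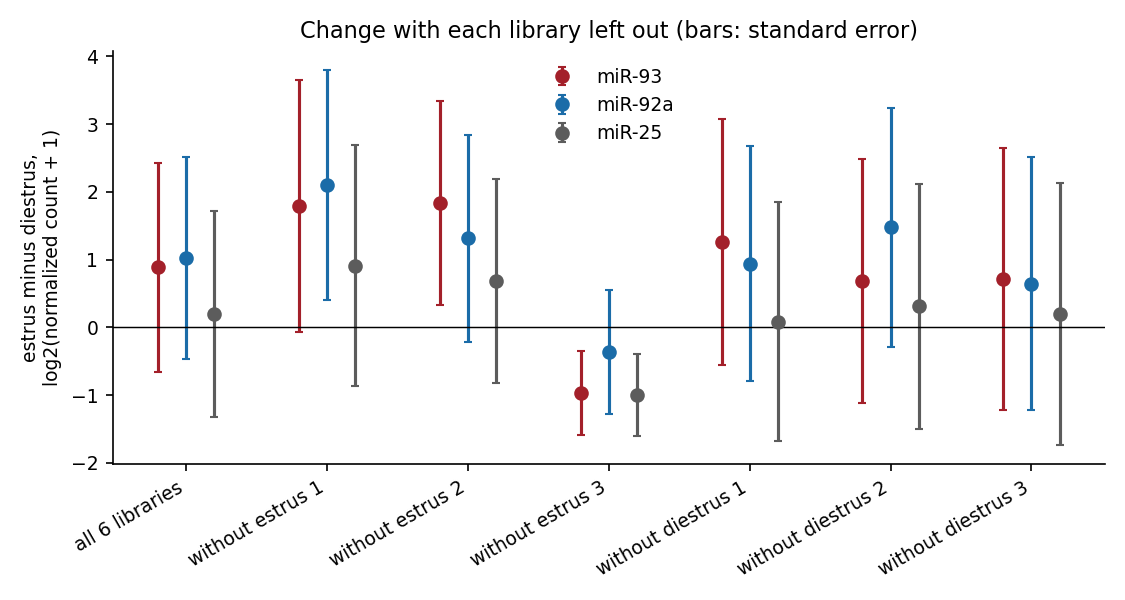
Change from diestrus to estrus of miR-93, miR-92a and miR-25 on the log2(normalized count + 1) scale, with all 6 libraries and with each left out in turn; points are limma estimates and bars standard errors. All points lie above 0 except those without the estrus library of animal 3, at -0.97, -0.36 and -0.99.

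More members were detected at estrus, through the same library. All 7 members had at least 1 read in the estrus library of animal 3, and the same number, 4, was detected in each of the other 5. At the depth of the smallest library, 3015 reads, the expected number was 4.93 in the estrus library of animal 3, 2.46 and 2.54 in the other estrus libraries and 4, 3.56 and 3.58 at diestrus. At equal depth the phase means were therefore 3.31 ± 1.41 members at estrus and 3.71 ± 0.247 members at diestrus (SD, n = 3 each), and the direction was the reverse of that in the whole libraries. The groups overlapped through the estrus library of animal 3 alone: without it the estrus mean was 2.50 members, both remaining values were under the lowest diestrus value, and the difference of the phase means went from -0.41 to -1.22.

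The levels of the 3 tested members ran in parallel across the 6 libraries, and less so over the 5 without the estrus library of animal 3. Across the 6 libraries the Pearson correlation of log2(normalized count + 1) was 0.94 between miR-93 and miR-25, 0.87 between miR-93 and miR-92a and 0.92 between miR-92a and miR-25. Over those 5 libraries it was 0.52, 0.05 and 0.52. For miR-92b it went from 0.50 to 0.96 with miR-93, from 0.46 to 0.64 with miR-25 and from 0.25 to 0.09 with miR-92a. These are descriptions over few points that share library depth, and the low counts make them uncertain. Among the 55 other tested miRNAs, those most like the members' summed level over the 6 libraries were miR-423-3p (Pearson r = 0.94), miR-148a (0.92) and miR-16a (0.92). They had 156, 370 and 579 reads in the estrus library of animal 3 and at most 5 in any other library. Their normalized counts outside that library were all under 5, so they entered the test through it, and a likeness to a summed level that is high there follows. Without that library r was 0.64 for miR-423-3p and 0.07 for miR-16a, and miR-148a had 0 reads throughout. Of 6 related miRNAs sought as paralogs or sharers of a seed, miR-106a, miR-18b, miR-20b, miR-363, miR-32 and miR-367, no row was analysed here.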

How the data were processed

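TRIzol LS was used to extract RNA from the cell-free saliva, per the labels' protocols, and the QIAseq miRNA kit, used for the libraries, adds molecular indices before PCR. The submitters' processing notes name FastQC, cutadapt, UMI-tools, Bowtie, SAMtools, featureCounts and DESeq2, without role or version; the miRNA reference is not given in the sources used here. The authors deposited normalized counts, a size-factor scaled signal, in 1 column per sample. In each column 100% of values were whole multiples of 1 step (within 0.01), and each step was 1 divided by a median-of-ratios size factor computed over the 43 miRNAs above 0 in every library. Reads were recovered from these steps for shares and intervals. Because 3 columns held fewer than 100 low values for checking the steps, no count test was run.

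The estrus libraries of animals 1, 2 and 3 held 16874, 6749 and 27036 reads, and their diestrus libraries 3015, 5548 and 5055, where a floor of 3 reads is 0.0111% to 0.0995% of a library. Groups came from the sample titles. limma 3.58.1 (R 4.3.3), with a mean-variance trend and a pseudocount of 1, was fitted without a block, since the labels state no paired test. A run on simulated counts held no library that stood apart, so it cannot speak for the fit to these data. With all 6 libraries variances showed no spread around the trend, which gave every test 232 degrees of freedom; without estrus replicate 3 it was 4.76. The replicate number is the animal number, which pairs the samples; deviations from phase means correlated at -0.0046, 0.37 and 0.30 in animals 1, 2 and 3. Python 3.11.15 was used otherwise. Members with at least 10 reads in all are given in every sample. The members, lists and tests were chosen with earlier results of these data known.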

Additional observations from a re-analysis of the deposited data

How the results depend on the processing

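Of the alternatives, edgeR and DESeq2 on recovered reads were not run, for the reason given with the processing, and no member passed a mean of at least 50. The adjusted p-values of miR-93, miR-92a and miR-25 ranged from 0.471 to 0.994 over the 16 alternative limma fits of each. The log2 change of miR-25 turned from 0.20 to -0.62 with medians centred, to -0.43 under quantile normalization and to -0.91 when totals left out miR-1246. It ranged from -0.99 to 0.91 over fits without 1 library. When totals left out miR-1246, miR-92a turned to -0.11 and miR-93 to -0.14; they ranged from -0.36 to 2.11 and from -0.97 to 1.84 without 1 library. Median centring and totals without miR-1246 moved the median of all 58 miRNAs by -0.82 and -1.08, so small positive changes turned. The number of tested members with a positive change, 3, was 0 for totals without miR-1246, 6 of 7 with no filter (miR-92b at -1.0), and 0 to 3 without 1 library. With the animal as a replicate block the changes of the 3 members were the same, 0 miRNAs passed the adjusted threshold and 6, in place of 8, the unadjusted one; no adjusted call changed.

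The count of miRNAs past the adjusted threshold, 0, was 1 for quantile normalization, 1 for totals without miR-1246 and 1 for column shares rescaled to the mean total (chosen after seeing the data), and 0 to 6 without 1 library, with 6 only without estrus replicate 2; no member was among them. The unadjusted count, 8, was 5 under each of median centring, quantile normalization and totals without miR-1246, 2 when the pseudocount was 10, 2 for means of 50 or more, 16 with no filter and 0 to 11 without 1 library. The cause was not tested. The difference in members detected, 1, was -0.41 at equal depth, 1.67 when at least 3 reads were asked for and 0 to 1.5 without 1 library. The difference in summed share ranged from -0.17 to 2.77 percentage points without 1 library. That of the miR-25/92 seed group was 12.4 for miR-92a alone and ranged from -17.0 to 1.02 without 1 library. Depth limits what can be said of miR-17-5p, miR-19b and miR-20a: in the smallest library 0 reads allow a share of up to 0.0995%.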
